A study of Rattus norvegicus with 30 samples.

Results

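The fatty acid desaturases and elongases Fads1, Fads2, Scd, Elovl1, Elovl2, Elovl5 and Elovl6 were followed in rat liver 24 hours after removal of part of the organ. They are the 7 genes, of 18166 measured, whose symbol was on this list and whose array probe set carried exactly 1 gene symbol, and each had 1 probe set. All 30 animals were wild-type Wistar rats, and the rats had been assigned to their operation at random. They formed 5 groups of 6: no operation, a sham operation, and partial hepatectomy of 30% (PH30), 70% (PH70) or 90% (PH90) of the liver. Snap-frozen liver was read on 1 Affymetrix Rat Gene array per rat. Sex, age and feeding were not given in the sources used here. The rats without an operation carry numbers 145 to 152, all above the other rats' 37 to 143, so the order of the rats and the missing operation cannot be told apart.

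Liver makes and remodels fatty acids by adding double bonds and carbon pairs to acyl-CoA chains in the endoplasmic reticulum. Scd, the delta-9 desaturase, turns saturated palmitate and stearate into monounsaturated fatty acids, and Elovl6 lengthens palmitate to stearate. Fads2, the delta-6 desaturase, and Fads1, the delta-5 desaturase, work in turn on the dietary polyunsaturated fatty acids, with the elongase Elovl5 acting between them and Elovl2 lengthening the products further towards the precursors of docosahexaenoate. Elovl1 lengthens saturated chains of very long fatty acids for sphingolipids. In mammals several of these genes are known targets of the transcription factors SREBP-1c, LXR and PPAR-alpha.

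The values are log2 and every probe set was centred on its median over the 30 arrays before deposit. A value of 0 is therefore a gene's own middle array, differences between rats are kept, and the level of one gene cannot be set against another's. Whether liver markers are present cannot be read from such values either. PH30 rat 95 and PH70 rat 139 stood apart from their groups, with mean correlations of -0.113 and -0.114 with the other arrays of their group, against at least 0.18 for every other array. Results that change without these 2 rats are given both ways. Calls were made at an adjusted p below 0.05 from limma's moderated test, fitted on all 30 arrays and adjusted over all 18166 genes by Benjamini-Hochberg. A log2 difference is the first group's mean minus the second's, and its error is the standard error (SE).

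The promoters of the 3 genes that fell after removal of 90% of the liver are shown first, because Fads1 and Fads2 lie close together on the chromosome and both fell steeply. In RefSeq's gene order for GRCr8, Fads3, Fads2 and Fads1 follow one another on chromosome 1, with a long non-coding RNA and a pseudogene between Fads2 and Fads1. Fads1 is on the plus strand and Fads2 on the minus strand. Elovl5 lies on chromosome 8. Each sequence, from RefSeq on GRCr8, runs from 250 bases before the start to 50 bases after it, on the strand of the gene. Capitals mark the matches to the motifs described next. Fads1 is at chr1:216252442-216252741, Fads2 at chr1:216171984-216172283 and Elovl5 at chr8:87670914-87671213.
Fads1: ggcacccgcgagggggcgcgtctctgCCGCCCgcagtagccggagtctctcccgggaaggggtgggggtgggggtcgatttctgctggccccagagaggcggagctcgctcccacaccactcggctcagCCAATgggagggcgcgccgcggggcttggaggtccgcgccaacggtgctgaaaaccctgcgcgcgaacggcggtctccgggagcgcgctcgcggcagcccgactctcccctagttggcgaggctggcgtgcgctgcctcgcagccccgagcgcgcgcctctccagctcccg
Fads2: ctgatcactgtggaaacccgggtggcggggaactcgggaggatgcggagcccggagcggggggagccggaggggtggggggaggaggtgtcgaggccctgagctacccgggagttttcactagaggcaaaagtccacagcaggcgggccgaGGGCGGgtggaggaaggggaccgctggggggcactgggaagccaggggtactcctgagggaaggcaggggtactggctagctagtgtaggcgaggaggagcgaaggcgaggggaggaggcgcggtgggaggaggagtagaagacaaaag
Elovl5: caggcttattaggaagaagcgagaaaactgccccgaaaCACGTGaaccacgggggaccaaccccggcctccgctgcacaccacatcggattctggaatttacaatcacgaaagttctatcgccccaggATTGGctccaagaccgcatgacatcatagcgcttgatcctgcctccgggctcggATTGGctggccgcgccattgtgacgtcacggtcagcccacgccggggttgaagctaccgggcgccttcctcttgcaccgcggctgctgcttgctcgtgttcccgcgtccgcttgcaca

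Both strands were searched for 6 motifs. The CCAAT box (CCAAT) was in 37.5% of all 33469 promoters in the table, and was found in Fads1, 121 bases before the start, and at 2 places in Elovl5, 122 and 68 bases before the start on the opposite strand. The GC box (GGGCGG) was in 33.1% of all promoters, and was found in Fads1, 224 bases before the start on the opposite strand, and in Fads2, 99 bases before the start. The E box (CACGTG) was in 6.42% of all promoters and was found in Elovl5, 212 bases before the start. The sterol response element TCACNCCAC, in 1.12% of all promoters, was not in the letters of any of the 7 promoter entries of the family, which cover 6 of its 7 genes, all but Elovl6. Nor were the direct repeats of AGGTCA with 1 base between (DR1, in 0.0538% of all promoters) or 4 bases between (DR4, in 0.00598%). The matches printed here do not overlap each other. Fads1 and Fads2 promoters held 74.3% and 67.3% G and C, against a median of 51.7% over all promoters.

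After removal of 90% of the liver both desaturases of the polyunsaturated pathway and the elongase Elovl5 fell, and Elovl6 rose. Against sham livers, Fads1 fell 11.4-fold, Fads2 fell 10.8-fold and Elovl5 fell 2.36-fold, while Elovl6 rose 2.34-fold. Thus 4 of the 7 genes were called, 3 lower and 1 higher, where 34.6% of all genes were called, 14.7% lower and 19.9% higher. The groups did not overlap for the 3 that fell, as for 8.48% of all genes, lower. The median log2 difference was -0.33 over the 7 genes and -0.0022 over all genes. Scd, Elovl1 and Elovl2 did not pass the test against sham. After removal of 70% only the fall of Fads1 was called, and after removal of 30% none of the 7 was.

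**Figure D1:**
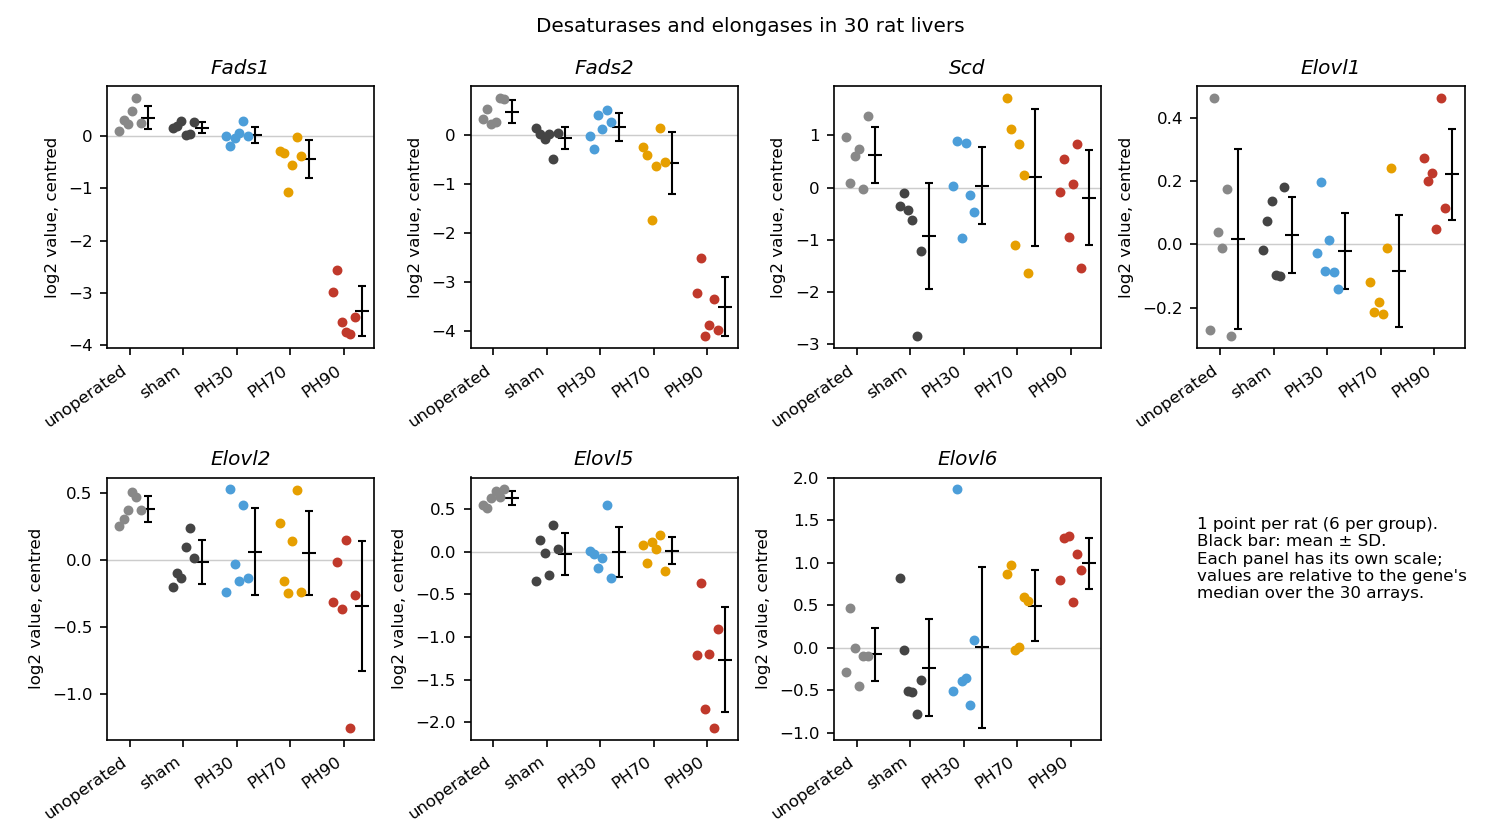
Value of each gene in each of the 30 rats (log2, centred on the median over all arrays), with groups from left to right unoperated, sham, PH30, PH70 and PH90, 1 point per rat. In PH90 rats Fads1 lies between -3.78 and -2.56 and Fads2 between -4.10 and -2.51, below every rat of the other groups.

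Fads1, the delta-5 desaturase, had the following lowest, median and highest values in the 6 rats of each group. They were 0.10, 0.28 and 0.73 in unoperated rats, 0.03, 0.18 and 0.28 in sham rats, -0.19, 0.00 and 0.29 in PH30 rats, -1.07, -0.36 and -0.01 in PH70 rats, and -3.78, -3.51 and -2.56 in PH90 rats. The PH90 rats lay apart from all others, and the PH70 rats lay below all sham rats with no overlap. In PH90 livers Fads1 averaged -3.35 ± 0.479, against 0.162 ± 0.108 in sham livers (SD, n = 6 each), a log2 difference of -3.51 (SE 0.163, adjusted p = 5.5e-16 in limma). That was rank 15 among all 18166 genes by size of fall. The 95% interval of the fold was 9.04 to 14.3.

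After removal of 70% of the liver Fads1 averaged -0.438 ± 0.358, 0.60 below sham on the log2 scale (SE 0.163, adjusted p = 0.0084 in limma), which is a 1.52-fold fall seen in 6 of 6 rats. It was 1 of 7 genes called, with 18.6% of all genes called in that comparison, 8.15% lower. It was also the 1 gene of the 7 below sham without overlap, as 2.98% of all genes were. Leaving out each of the 12 rats in turn kept this call, with log2 differences between -0.69 and -0.47 and adjusted p between 0.0041 and 0.033 in limma. PH70 rat 59 had the lowest PH70 value of both Fads1 and Fads2. In PH30 livers Fads1 differed from sham by -0.14 (adjusted p = 0.7 in limma), and its log2 difference between PH70 and PH30 livers was -0.46 (adjusted p = 0.12 in limma). Between PH90 and PH70 livers the difference was -2.91 (SE 0.163, adjusted p = 1.1e-13 in limma).

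Fads2, the delta-6 desaturase that opens the polyunsaturated pathway, also fell. Its lowest, median and highest values were 0.21, 0.42 and 0.75 in unoperated rats, -0.49, 0.02 and 0.14 in sham rats, -0.30, 0.19 and 0.50 in PH30 rats, -1.73, -0.48 and 0.14 in PH70 rats, and -4.10, -3.61 and -2.51 in PH90 rats. Again the PH90 rats were apart from all others, while PH70 and sham rats overlapped. In PH90 livers Fads2 averaged -3.50 ± 0.600, against -0.064 ± 0.222 in sham livers (SD, n = 6 each), a log2 difference of -3.44 (SE 0.236, adjusted p = 1.8e-12 in limma), rank 16 among all genes by size of fall. The 95% interval of the fold was 7.75 to 15.2. In PH70 livers the log2 difference from sham was -0.51 (SE 0.236, adjusted p = 0.15 in limma), which did not pass. The same PH70 livers were 1.04 below unoperated livers on the log2 scale (adjusted p = 0.002 in limma), with no overlap of the groups. PH90 livers were 2.93 below PH70 livers (adjusted p = 1.5e-10 in limma).

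The size of these falls changed under quantile normalization of the deposited values, although the calls did not. Every probe set was already centred, so that step gives all arrays the same spread of centred values. It shrinks differences on arrays whose values spread more widely, and so cannot show which size is nearer the truth. When the deposited values were quantile normalized again before the fit, the log2 difference between PH90 and sham livers was -1.88 for Fads1, -1.73 for Fads2 and -0.62 for Elovl5, each still called. Between PH90 and PH70 livers it was then -1.14 for Fads1, -1.06 for Fads2 and -0.66 for Elovl5, and between PH90 and PH30 livers -1.71, -2.02 and -0.65 for the same genes, each still called.

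**Figure D2:**
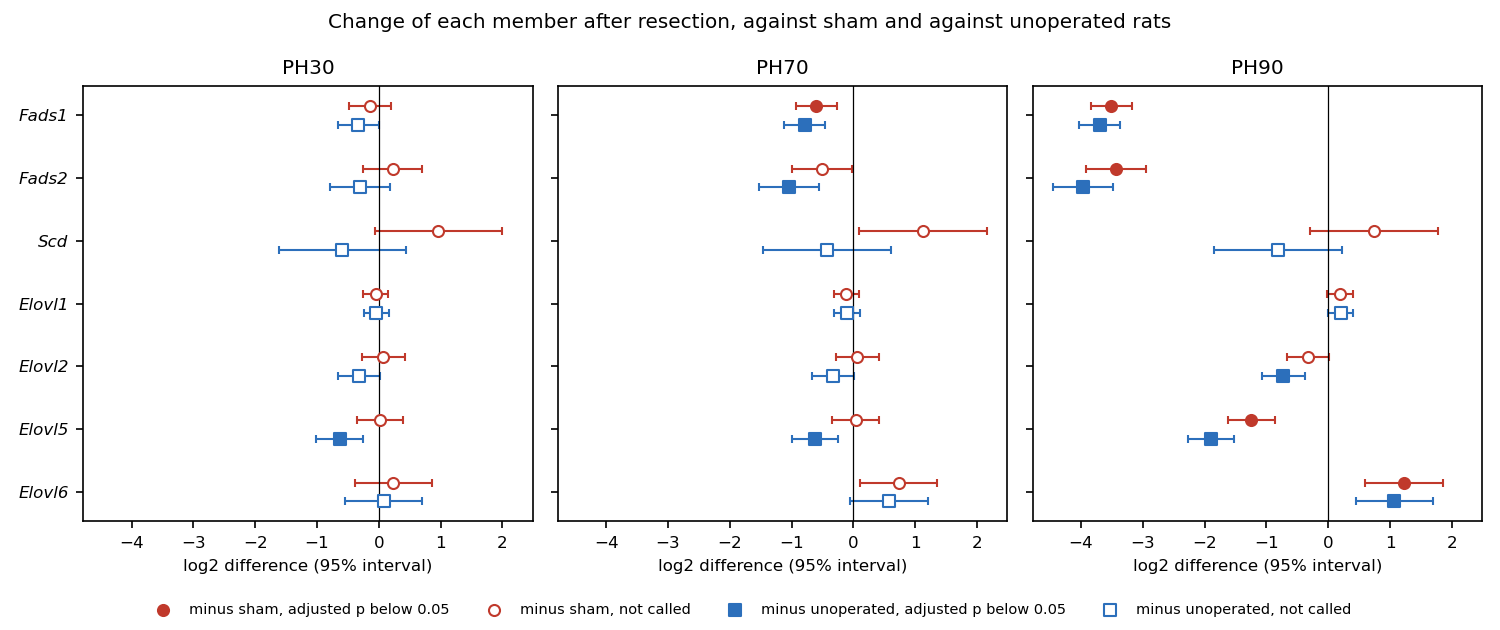
Log2 difference of each gene (down the page) from sham rats (red circles) and from unoperated rats (blue squares) in PH30, PH70 and PH90 livers, with 95% intervals. Filled symbols have an adjusted p below 0.05. Fads1 and Fads2 in PH90 livers stand beyond -3.4 from either control group, whereas the signs of Scd differ between the 2 control groups.

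Elovl5, the elongase between the delta-6 and delta-5 steps, fell against sham after removal of 90% of the liver. Its lowest, median and highest values were 0.51, 0.64 and 0.73 in unoperated rats, -0.34, 0.01 and 0.31 in sham rats, -0.31, -0.05 and 0.55 in PH30 rats, -0.23, 0.06 and 0.20 in PH70 rats, and -2.06, -1.20 and -0.36 in PH90 rats. PH90 and sham rats did not overlap, but the PH90 rats were spread over 1.70 log2 units, and rat 43 was the highest at -0.36. In PH90 livers Elovl5 averaged -1.26 ± 0.621, against -0.023 ± 0.247 in sham livers (SD, n = 6 each), a log2 difference of -1.24 (SE 0.184, adjusted p = 2.3e-06 in limma). The log2 difference from sham was 0.02 in PH30 livers and 0.04 in PH70 livers, and neither was called. PH90 livers were 1.28 below PH70 livers (SE 0.184, adjusted p = 3.7e-06 in limma). Against unoperated livers, whose 6 rats all lay above the sham rats, the PH90 difference was larger, at -1.90 (SE 0.184, adjusted p = 1.3e-09 in limma).

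Elovl2, which acts on the longer polyunsaturated chains, had lowest, median and highest values of 0.25, 0.37 and 0.50 in unoperated rats, -0.20, -0.04 and 0.24 in sham rats, -0.24, -0.08 and 0.52 in PH30 rats, -0.25, -0.01 and 0.52 in PH70 rats, and -1.25, -0.29 and 0.15 in PH90 rats. PH90 and sham rats overlapped. The log2 difference between PH90 and sham livers was -0.33, with a 95% interval from -0.67 to 0.01 (adjusted p = 0.14 in limma). Against unoperated livers it was -0.72 (SE 0.168, adjusted p = 0.00092 in limma), with no overlap.

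Elovl6, the elongase that makes stearate, rose after removal of 90% of the liver. Its lowest, median and highest values were -0.45, -0.10 and 0.47 in unoperated rats, -0.79, -0.44 and 0.83 in sham rats, -0.67, -0.38 and 1.86 in PH30 rats, -0.03, 0.58 and 0.97 in PH70 rats, and 0.54, 1.01 and 1.31 in PH90 rats. PH90 rats lay above all unoperated rats, and overlapped sham rats only through sham rat 41, which was the highest of its group. In PH90 livers Elovl6 averaged 0.994 ± 0.302, against -0.235 ± 0.574 in sham livers (SD, n = 6 each), a log2 difference of 1.23 (SE 0.305, adjusted p = 0.0017 in limma). The difference between PH90 and PH30 livers was 0.99 (adjusted p = 0.012 in limma) and lost its call in a fit of those 2 groups alone (adjusted p = 0.057 in limma).

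In PH70 livers Elovl6 was 0.73 above sham (SE 0.305, adjusted p = 0.1 in limma), in 6 of 6 rats above the sham mean. That difference was called without rats 95 and 139, at 0.72 (adjusted p = 0.02 in limma), and without sham rat 41, at 0.94 (adjusted p = 0.027 in limma). The highest PH30 value was that of rat 95. Without rats 95 and 139 the log2 difference between PH70 and PH30 livers was 0.85 (adjusted p = 0.015 in limma), against 0.49 (adjusted p = 0.43 in limma) with them.

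Scd, the delta-9 desaturase, varied widely within groups, with an SD of 0.532 in unoperated rats and 1.31 in PH70 rats. Its lowest, median and highest values were -0.03, 0.67 and 1.37 in unoperated rats, -2.85, -0.53 and -0.10 in sham rats, -0.97, -0.05 and 0.90 in PH30 rats, -1.63, 0.53 and 1.72 in PH70 rats, and -1.54, -0.01 and 0.83 in PH90 rats. The 3 resected groups overlapped each other widely, and sham rat 141 had the lowest value of all. The log2 difference from sham was 0.97 in PH30 livers (adjusted p = 0.29 in limma), 1.12 in PH70 livers (adjusted p = 0.13 in limma) and 0.74 in PH90 livers (95% interval from -0.29 to 1.77, adjusted p = 0.3 in limma). Against unoperated livers the corresponding differences were -0.59, -0.43 and -0.81, and none was called. Without rats 95 and 139 the PH70 difference from sham was 1.49 (adjusted p = 0.022 in limma). PH70 rat 139, at -1.63, and rat 59, at -1.11, were the 2 lowest PH70 rats.

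Elovl1, which lengthens saturated very-long chains, had the smallest difference of the 7 between PH90 and sham livers. Its lowest, median and highest values were -0.29, 0.01 and 0.46 in unoperated rats, -0.10, 0.03 and 0.18 in sham rats, -0.14, -0.06 and 0.20 in PH30 rats, -0.22, -0.15 and 0.24 in PH70 rats, and 0.05, 0.21 and 0.46 in PH90 rats. The groups overlapped. The log2 difference between PH90 and sham livers was 0.19 (adjusted p = 0.16 in limma). PH90 livers were 0.31 above PH70 livers (SE 0.101, adjusted p = 0.024 in limma). This call was lost on leaving out PH70 rat 58, 59 or 97 or PH90 rat 106, with adjusted p between 0.053 and 0.076 in limma, and after quantile normalization (adjusted p = 0.17 in limma).

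Between the resections themselves, limma's F test for any difference among PH30, PH70 and PH90 called 5 of the 7 genes, where it called 32.4% of all genes. These were Fads1 (adjusted p = 2.8e-15), Fads2 (adjusted p = 1.2e-12), Elovl5 (adjusted p = 1e-06), Elovl6 (adjusted p = 0.037) and Elovl1 (adjusted p = 0.04), all by limma. After quantile normalization 3 were called. The F test over all 5 groups also called 5 of the 7, with Elovl2 (adjusted p = 0.014 in limma) in place of Elovl1, where it called 42.7% of all genes. Between PH90 and PH70 livers 4 of the 7 were called, 3 lower and 1 higher (24.5% of all genes, 10.4% lower and 14.1% higher), and between PH90 and PH30 livers also 4, 3 lower and 1 higher (31.5% of all genes, 13.1% lower and 18.4% higher). Between PH70 and PH30 livers limma called 0 of the 7, with 2 at an unadjusted p below 0.05 (2.27% of all genes were called). Of these, Fads2 was the larger, at -0.73 (adjusted p = 0.089 in limma). It was called at -0.82 without rats 95 and 139 (adjusted p = 0.031 in limma). Without the same 2 rats Elovl2 was also called between PH90 and PH70 livers, at -0.45 (adjusted p = 0.048 in limma, 0.094 with them). Elovl1 was then called between PH90 and PH30 livers, at 0.29 (adjusted p = 0.021 in limma, 0.067 with them).

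Between PH30 and sham livers limma called 0 of the 7, and 0 had an unadjusted p below 0.05, with 5.53% of all genes called. Against unoperated rats 1 of 7 was called in PH30 livers (9.85% of all genes, 6.37% lower), Elovl5, which was 0.64 lower (adjusted p = 0.025 in limma). In PH70 livers 3 of 7 were called against unoperated rats (18.5% of all genes, 9.17% lower), Fads1 and Fads2 and Elovl5, all lower. In PH90 livers 5 of 7 were called against them (33.8% of all genes, 14.5% lower and 19.3% higher), with Fads1, Fads2, Elovl5 and Elovl2 lower and Elovl6 higher. The number of the 7 called after the smaller resections thus differed between the 2 control groups. In PH70 livers it also changed against the same sham group, from 1 to 3 without rats 95 and 139.

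The sham operation is itself a comparison. Fads2, Scd, Elovl2 and Elovl5 were lower in every sham rat than in every unoperated rat, 4 of the 7 genes, where 1.90% of all genes were lower without overlap. The log2 differences between sham and unoperated livers were -0.53 for Fads2, -1.55 for Scd, -0.39 for Elovl2 and -0.65 for Elovl5. None was called in the fit on all 30 arrays, in which limma called 0 of the 7 with 4 at an unadjusted p below 0.05, and 0.738% of all genes (adjusted p = 0.38, 0.17, 0.35 and 0.096 in limma in the same order). In a limma fit of these 2 groups alone all 4 were called, with adjusted p of 0.015, 0.032, 0.0069 and 0.00089. The Scd difference ranked 3 by size of fall among 18166 genes. Fads1, Elovl1 and Elovl6 overlapped between the 2 groups.

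Within a liver, the genes were then set against each other by the difference of their values on the same array, over the 21 pairs of genes, as a comparison chosen after the values were seen. In PH90 livers the difference Fads1 minus Fads2 was 0.16 ± 0.365, against 0.23 ± 0.203 in sham livers (SD, n = 6 each), so that it changed by -0.07 (exact permutation p = 0.7, two-sided, adjusted 0.7). A p of that size does not show that the 2 desaturases fell alike. Fads1 fell further than Elovl5 by 2.27 log2 units, and Fads2 further than Elovl5 by 2.20 (exact permutation p = 0.0022 each, the smallest that 6 against 6 rats allow, adjusted 0.0039). Elovl5 in turn fell further than Elovl2 by 0.91 (exact permutation p = 0.0043, adjusted 0.0065). For Scd against Elovl6, both acting on saturated chains, the change was -0.49 (exact permutation p = 0.34, adjusted 0.36). After quantile normalization the gap was 1.25 for Fads1 beyond Elovl5 (exact permutation p = 0.0022, adjusted 0.0051), 1.11 for Fads2 beyond Elovl5 (exact permutation p = 0.0043, adjusted 0.0082) and 0.43 for Elovl5 beyond Elovl2 (exact permutation p = 0.0065, adjusted 0.01), and the change of Scd minus Elovl6 was 0.26 (exact permutation p = 0.67, adjusted 0.67).

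**Figure D3:**
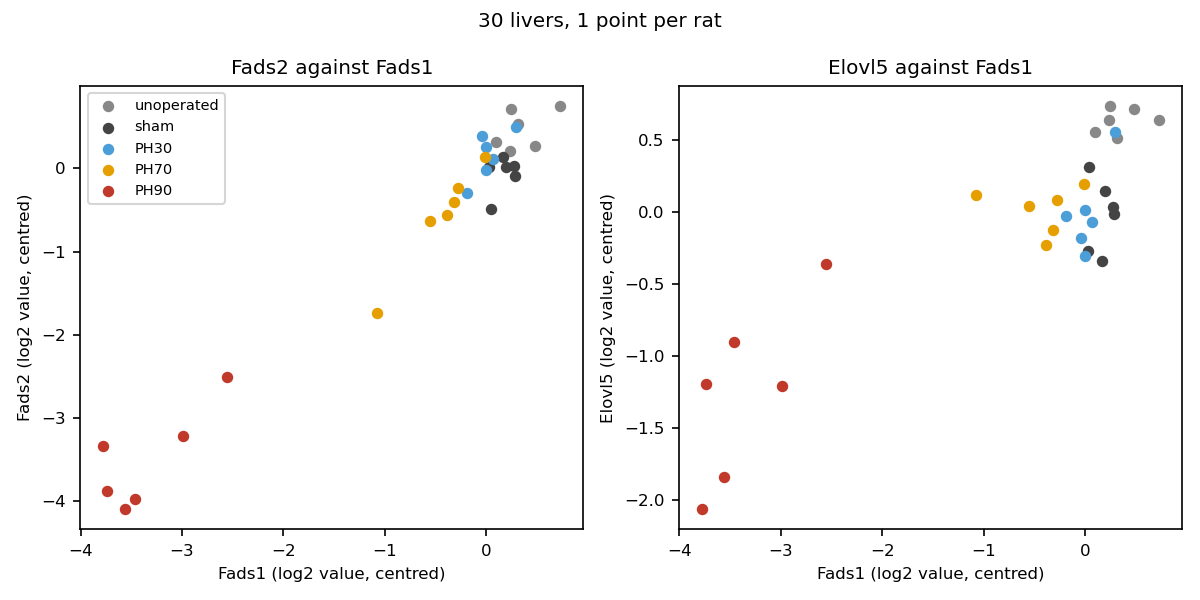
Values of Fads2 (left) and Elovl5 (right) against Fads1, all as centred log2 values, 1 point per rat, coloured by group. Fads2 follows Fads1 within PH70 rats too, with rat 59 lowest in both, whereas Elovl5 in PH70 rats stays between -0.23 and 0.20 over a range of 1.06 in Fads1.

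Rats of one group also differed from each other in the same direction for some of the genes. With group means removed, the 30 values of Fads1 and Fads2 correlated at r = 0.803 (permutation p = 8e-05, adjusted 0.0017 over 21 pairs) and rho = 0.704 (permutation p = 0.00022, adjusted 0.0046). Without the 2 rats farthest in Fads1, rats 43 and 59, r was 0.642. Within groups of 6 rats r was 0.764 in PH30, 0.991 in PH70, 0.794 in PH90, 0.417 in sham and 0.455 in unoperated rats. Elovl2 and Elovl5 correlated at r = 0.644 (permutation p = 0.0041, adjusted 0.043) and rho = 0.564 (permutation p = 0.0029, adjusted 0.03), and at r = 0.535 without rats 87 and 106. These were 2 of 21 pairs, and the other 19 did not pass the adjustment.

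The genes most like each of the 7 over the 30 arrays are given by Pearson's r as a description, with r over the 24 arrays without PH90 after it. For Fads1 they were Fads2 (r = 0.983, then 0.877), Sult1c3 (r = 0.975, then 0.705) and Cyp2c13 (r = 0.973, then 0.693), and for Fads2, besides Fads1, Cyp2c13 (r = 0.957, then 0.633) and Slc10a1, the hepatocyte bile acid uptake carrier (r = 0.957, then 0.669). For Elovl5 they were Pygl, liver glycogen phosphorylase (r = 0.971, then 0.861), Slco1b2 (r = 0.930, then 0.747) and Gulo (r = 0.929, then 0.692). For Elovl6 they were Xpo1, the nuclear exportin (r = 0.820, then 0.759), Rpl13a (r = 0.819, then 0.801) and Lsm4 (r = 0.813, then 0.783). For Elovl2 they were Itgb5 (r = 0.806, then 0.624), Entpd5 (r = 0.779, then 0.640) and Cth (r = 0.778, then 0.661), and for Elovl1 Emc10 (r = 0.789, then 0.836), Rab1b (r = 0.754, then 0.689) and Lrrc41 (r = 0.748, then 0.709). For Scd they were Tkt, transketolase of the pentose phosphate pathway (r = 0.655, then 0.719), Igflr1 (r = 0.634, then 0.633) and Hspa4l (r = 0.632, then 0.712). Without PH90, r was thus lower for all genes named beside Fads1, Fads2, Elovl2, Elovl5 and Elovl6, and higher for Tkt, Hspa4l and Emc10.

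The counts in the gene lists that follow stand beside 34.6% of all genes called in PH90 against sham livers (19.9% higher, 14.7% lower), 18.6% in PH70 livers and 5.53% in PH30 livers, and call nothing particular to a list. Among the other desaturase and elongase genes, 4 of 9 rose and 1 fell in PH90 against sham livers, with a median log2 difference of 0.10. Fads3, the neighbour of Fads2 on chromosome 1, rose by 0.40 (adjusted p = 0.0025 in limma), Elovl3 by 0.45 (adjusted p = 0.0017 in limma) and the ceramide desaturase Degs1 by 0.36 (adjusted p = 0.0024 in limma). Fads6 fell by 1.21 (adjusted p = 8.8e-07 in limma). In PH70 and PH30 livers 0 of the 9 were called by limma against sham.

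Desaturases draw electrons from cytochrome b5, and elongases share the later steps of their cycle. Of 10 such genes measured, 6 fell and 3 rose in PH90 livers, with a median of -0.31. Cytochrome b5 itself, Cyb5a, fell by 1.75, its outer mitochondrial relative Cyb5b fell by 1.46 and the reductase Cyb5r3 fell by 1.42 (adjusted p = 1.5e-09, 1.5e-08 and 1.5e-08 in limma). Tecr, which closes each elongation round, fell by 0.92, while Cyb5r1 rose by 1.06 and the dehydratase Hacd1 rose by 1.0. In PH70 livers 2 fell and 1 rose, Cyb5b at -0.66, Tecr at -0.30 and Cyb5r1 at 0.71. In PH30 livers 1 fell, Cyb5b at -0.68.

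**Figure D4:**
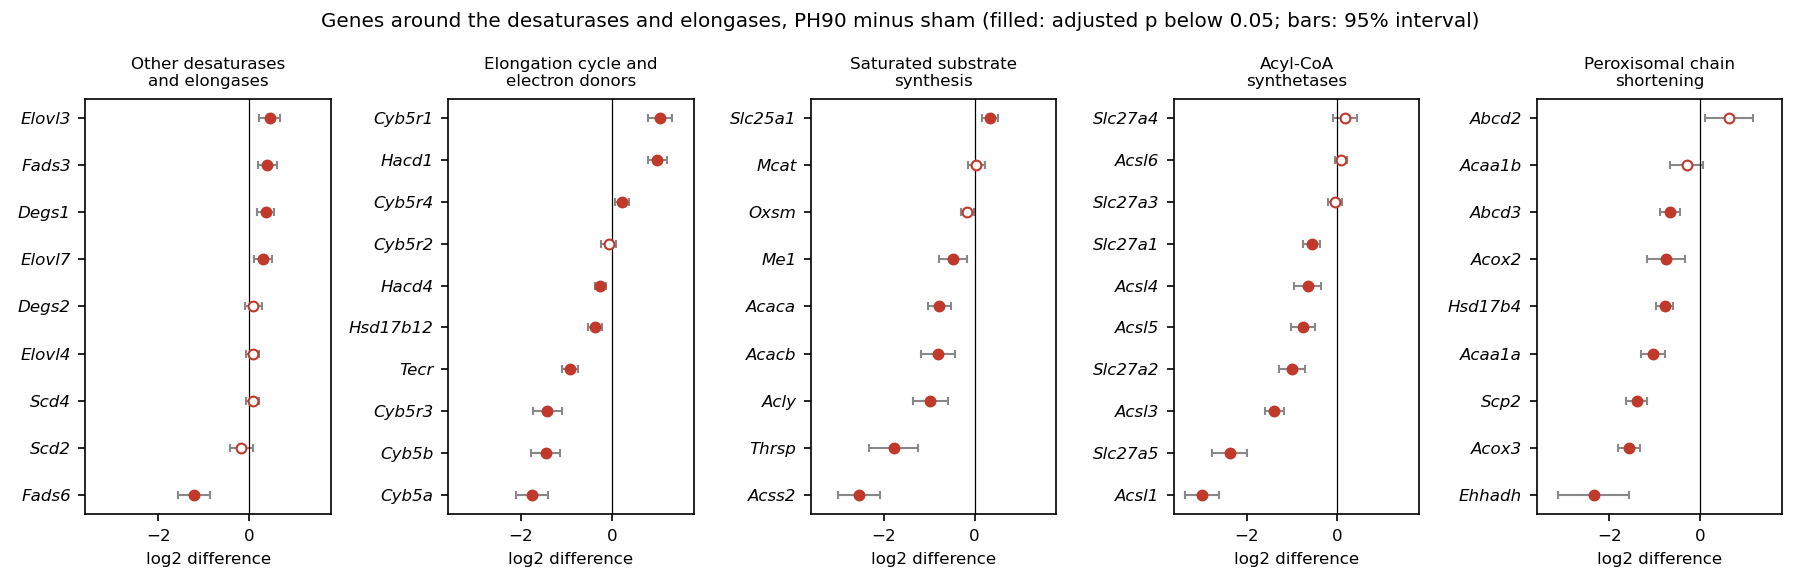
Log2 difference between PH90 and sham livers for the genes of 5 lists around the family, with 95% intervals, and filled symbols for an adjusted p below 0.05. Acsl1 at -2.98 and Acss2 at -2.54 are the largest falls among the genes that supply and activate the chains.

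Most of the genes measured that supply the saturated chains or activate fatty acids fell in PH90 livers. Fasn, the fatty acid synthase gene, was on the supply list but was not among those analysed. Of 9 supply genes measured, 6 fell and 1 rose in PH90 livers (median -0.77), with Acss2, which makes acetyl-CoA from acetate, at -2.54, the lipogenic protein gene Thrsp at -1.78, ATP citrate lyase Acly at -0.97 and the carboxylase Acacb at -0.81. Of 10 acyl-CoA synthetase genes 7 fell and 0 rose (median -0.71), with Acsl1 at -2.98, the bile acid and fatty acid ligase Slc27a5 at -2.37, Acsl3 at -1.39 and Slc27a2 at -1.0. In PH70 livers 1 supply gene fell, Acss2 at -1.0, and 3 synthetases, Acsl1 at -1.14, Slc27a5 at -0.65 and Slc27a2 at -0.53. In PH30 livers 0 supply genes and 2 synthetases fell, Acsl1 at -0.63 and Slc27a1 at -0.36.

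Peroxisomes shorten the longest polyunsaturated chain in the last step towards docosahexaenoate. Of 9 genes of this step measured, 7 fell and 0 rose in PH90 livers (median -0.78), among them Ehhadh at -2.34, Acox3 at -1.57, Scp2 at -1.40 and Acaa1a at -1.04. In PH70 livers 6 fell, with Ehhadh at -1.08 and Acox3 at -0.84, and in PH30 livers 1 fell, Acox3 at -0.54. Among 16 genes that place acyl chains in phospholipids and triglycerides, 7 rose and 4 fell in PH90 livers (median 0.24). Mboat1 rose by 1.25 and Gpat3 by 1.07, while Dgat2, a last enzyme of triglyceride synthesis, fell by 1.19 and the glycerol phosphate acyltransferase Gpam fell by 1.10. In PH70 livers 2 of the 16 rose and 3 fell, Mboat1 at 0.86 and Dgat2 at -0.62 being the largest, and in PH30 livers 1 fell, Dgat2 at -0.47.

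Of 28 regulators measured, 9 fell and 6 rose in PH90 livers (median -0.16), where 14.7% of all genes were lower and 19.9% higher. Srebf1, which encodes SREBP-1, fell by 1.68 (SE 0.199, adjusted p = 5.3e-08 in limma), and Ppara, the fatty acid sensor, fell by 1.41 (SE 0.263, adjusted p = 6.5e-05 in limma). The coactivator Ppargc1a rose by 1.41 and the insulin receptor substrate Irs2 rose by 1.10. In PH70 livers 3 fell and 2 rose, with Ppara at -0.97, the SREBP retention factor Insig2 at -0.80 and Nfya, a subunit of the CCAAT-binding factor, at 0.30. In PH30 livers 1 fell, Insig2 at -0.71. Between sham and unoperated livers 1 of the 28 was called, the hormone gene Fgf21 at -0.76, lower in sham. Fgf21 ran from -0.07 to 1.79 in unoperated rats, with a median of 0.18. In sham rats Fgf21 ran from -0.59 to -0.19, with a median of -0.25. The mean log2 values of the supply, synthetase and peroxisome lists did not overlap between PH90 and sham rats. A few genes with large changes can set such a mean, and how often means of other lists fail to overlap was not tested. The supply mean was -0.83 to -0.54 in PH90 rats, against -0.07 to 0.33 in sham rats, the synthetase mean -0.92 to -0.67 in PH90 rats, against 0.04 to 0.25 in sham rats, and the peroxisome mean -1.27 to -0.39 in PH90 rats, against 0.03 to 0.28 in sham rats. The mean of the cytochrome b5 and elongation cycle list, -0.47 to -0.13 in PH90 rats, against 0.02 to 0.14 in sham rats, did not overlap either. The regulator mean, -0.22 to 0.01 in PH90 rats, against -0.02 to 0.10 in sham rats, overlapped, as did the acyl transfer mean, -0.10 to 0.23 in PH90 rats, against -0.07 to 0.05 in sham rats, and that of the other desaturases and elongases, -0.02 to 0.08 in PH90 rats, against -0.12 to 0.08 in sham rats.

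Markers of cell types were counted in the same way in PH90 against sham livers, beside 34.6% of all genes called. The median log2 difference was -0.14 for hepatocyte, -0.54 for macrophage, 0.07 for endothelial, -0.08 for T and NK cell and 0.27 for neutrophil markers. It was -0.21 for stellate cell, 0.06 for bile duct, -0.11 for B cell, -0.12 for red cell and -0.04 for adipocyte markers. The ranges below are of each rat's mean over a list, which a few large changes can set. Of 8 hepatocyte markers 4 fell and 1 rose, and their mean ran from -0.52 to -0.33 in PH90 rats, against -0.02 to 0.12 in sham rats. Of 10 macrophage markers 6 fell and 1 rose (mean -0.69 to -0.04 in PH90 rats, against -0.07 to 0.20 in sham rats), and of 6 endothelial markers 2 fell (-0.54 to -0.16 in PH90 rats, against -0.24 to 0.28 in sham rats). Of 10 T and NK cell markers 4 fell (-0.26 to -0.12 in PH90 rats, against 0.05 to 0.16 in sham rats), and of 8 neutrophil markers 3 rose (-0.02 to 0.30 in PH90 rats, against -0.13 to 0.06 in sham rats). Of 10 stellate cell markers 3 fell and 2 rose (-0.30 to 0.12 in PH90 rats, against -0.10 to 0.35 in sham rats), and of 7 bile duct markers 1 fell and 1 rose (-0.01 to 0.49 in PH90 rats, against -0.10 to 0.08 in sham rats). Of 4 B cell markers 1 fell (-0.19 to 0.03 in PH90 rats, against -0.04 to 0.20 in sham rats), of 4 red cell markers 1 fell (-0.26 to 0.07 in PH90 rats, against 0.10 to 0.48 in sham rats), and of 9 adipocyte markers 1 fell and 1 rose (0.05 to 0.15 in PH90 rats, against -0.02 to 0.08 in sham rats). In PH70 livers, where 18.6% of all genes were called, 1 of 8 hepatocyte, 2 of 10 macrophage, 2 of 6 endothelial, 2 of 10 T and NK cell, 1 of 10 stellate cell and 1 of 4 red cell markers fell, and 1 of 10 macrophage and 3 of 8 neutrophil markers rose. In those livers 0 bile duct, B cell or adipocyte markers were called by limma. Between sham and unoperated livers 1 hepatocyte marker was lower and 1 red cell marker higher in sham, and 0 markers of the other 8 lists were called by limma. In such whole-tissue samples fewer cells of a type and less RNA per cell cannot be told apart. The part of these markers in the results was not tested.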

How the data were processed

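Per the submitters' processing notes, the authors' values were made with RMA (robust multi-array average) in Affymetrix Expression Console, with versions not given in the sources used here. The deposited log2 values, 29489 probe sets by 30 arrays, have a median of 0 over the arrays in every probe set (within 5e-07), so levels are lost and no filter on low values could be applied. The log2 scale is taken from RMA. Of the probe sets 18511 had 1 gene symbol in the platform annotation, giving 18166 genes, and the mean was used for the 291 genes with several. Groups were compared with limma 3.58.1 in R 4.3.3 (25 residual and 3.71 prior degrees of freedom), two-sided. The limma comparison of PH90 with sham and the within-group correlations were tested on simulated data. The F tests, the exact permutation tests and the search for outlying values were not. Correlations used 100000 permutations within groups. Precision is limited by 6 arrays per group. The 7 genes, the lists and the markers were chosen with earlier results of these data known. Genes named are the 7, up to 4 called genes of each list by size, and the 3 genes most correlated with each of the 7. Tecr and Hacd1 in PH90 livers were added after their values were seen. Some listed genes were not analysed here. Alternatives covered the control group, the arrays that stand apart, array weights, the prior, normalization, the probe sets and each rat in turn.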

Additional observations from a re-analysis of the deposited data

Results flagged for a closer look

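Of 35 groups of 6 values, 7 genes in 5 groups, 3 held a value whose gap to its nearest neighbour was over 0.625 of the group's range, and chance gives about 1 in 20 such groups. Fads2 in sham rat 141 was -0.49, below the other sham rats, and the same rat had the lowest Scd value of all. Elovl2 in PH90 rat 106 was -1.25, the lowest of its group. Elovl6 in PH30 rat 95, the array that stood apart from its group, was 1.86, against a PH30 median of -0.38.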

How the results depend on the processing

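No paired analysis was possible because the rats of different groups share no numbers. Against sham, 4 of 7 genes were called in PH90 livers in every fit that left out 1 rat, and Fads1, Fads2, Elovl5 and Elovl6 kept their direction and their call under every alternative run. Of 413 other fits of a gene's log2 difference 376 kept direction and call, as did 548 of 588 that left out 1 rat. Among the 413, fits of 2 groups alone, with another prior or on the probe sets kept the log2 difference by design. Only the call could change in those, so the total of 376 overstates how far direction was tested. The count called between PH30 and sham was 0, and 1 with unoperated rats in place of sham. Between PH70 and sham it was 1, and 3 with unoperated rats, 3 without rats 95 and 139, 3 with array weights, and 1 to 2 on leaving out 1 rat (2 without PH70 rat 139 or sham rat 41). Between PH70 and PH30 it was 0, and 2 without rats 95 and 139, 1 with array weights, 2 after quantile normalization, and 0 to 2 on leaving out 1 rat (2 without PH30 rat 95). Between sham and unoperated it was 0, and 4 in the fit of the 2 groups alone, 1 with array weights and 1 after quantile normalization. The F test over the 3 resections called 5, and 3 after quantile normalization. On leaving out 1 rat the count was 3 to 5 between PH90 and PH70 and 4 to 6 between PH90 and PH30. With unoperated rats in place of sham, signs turned in PH30 livers for Fads2 (-0.31), Scd (-0.59), Elovl2 (-0.32) and Elovl5 (-0.64), in PH70 livers for Scd (-0.43), Elovl2 (-0.33) and Elovl5 (-0.62), and in PH90 livers for Scd (-0.81), and within arrays for Fads1 minus Fads2 (0.27), Scd minus Elovl1 (-1.02) and Scd minus Elovl2 (-0.090). Without rats 95 and 139 signs turned for Elovl2 (-0.018) and Elovl6 (-0.13) between PH30 and sham, Elovl2 between PH70 and PH30 (0.14, and 0.069 with array weights), and the within-group correlations of Scd with Elovl2 (-0.17) and of Elovl2 with Elovl6 (-0.24). After quantile normalization they turned for Elovl1 between sham and unoperated (-0.0037), Scd between PH70 and PH30 (-0.12) and Scd between PH90 and PH70 (0.086), and within arrays, as a setting added after seeing the data, for Scd minus Elovl6 (0.26). Leaving out 1 rat turned signs of differences from sham for Elovl2 (-0.018 to 0.14), Elovl5 (-0.092 to 0.086) and Elovl6 (-0.13 to 0.45) in PH30 livers and for Elovl2 (-0.031 to 0.12) and Elovl5 (-0.028 to 0.10) in PH70 livers. It did so for Elovl1 between sham and unoperated (-0.049 to 0.10), between PH70 and PH30 for Scd (-0.15 to 0.52), Elovl2 (-0.11 to 0.081) and Elovl5 (-0.045 to 0.13), for Scd between PH90 and PH30 (-0.43 to 0.045), and for Fads1 minus Fads2 between PH90 and sham (-0.15 to 0.047). The cause of these changes was not tested.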
